A study of Mus musculus with 5 samples.

Results

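The genes described are the nuclear-encoded subunits of oxidative phosphorylation, chosen by gene symbol alone: names that begin with Ndufa, Ndufb, Ndufc, Ndufs or Ndufv and a number, Sdha to Sdhd, Uqcr, Cyc1, Cycs, Cox4 to Cox8 with a letter a, b or c, or Atp5, leaving out 2 names that end in -ps. This gave 94 of the 40879 symbols in the count files. They comprised 41 names of complex I, 4 of complex II, 9 of complex III, 18 of complex IV and 17 of complex V, together with cytochrome c (Cycs) and 4 assembly factors of complex II (Sdhaf1 to Sdhaf4), which the name pattern also takes. Ndufa4 and its relative Ndufa4l2 were placed with complex IV, where the Ndufa4 protein is found. The pattern misses the subunit genes Cox4i1, Cox4i2 and Ndufab1 and the ATP synthase inhibitor Atpif1, which are given separately. Of the 94 names, 90 had a count in some library, 88 passed the filter on low counts and were tested, and 78 had a mean of at least 10 CPM (the count over the library total, scaled to 1000000).

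The cells were BV-2, an immortalised mouse microglial line, and there was 1 library for each of 5 groups. The control library came from the culture labelled as normal, the UPM library from cells given urban particulate matter (UPM) at 50 µg/mL for 23 h, and the other 3 from cells that also had 1 h with the antidepressant trazodone (TZ) before the particles, at 1.25, 2.5 or 5 µg/mL (TZ 1.25, TZ 2.5 and TZ 5). All TZ libraries thus carry UPM as well, and the labels do not state whether the control received a vehicle. With 1 library per group, every fold between 2 groups compares 2 libraries and not 2 conditions, and its 95% interval, given in parentheses, covers counting error only.

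Oxidative phosphorylation is carried out by 5 complexes in the inner mitochondrial membrane. Complex I takes electrons from NADH and complex II from succinate, complex III passes them to the carrier cytochrome c, complex IV hands them to oxygen, and complex V, the ATP synthase, makes ATP from the proton gradient that complexes I, III and IV build. The nucleus encodes all of complex II and most subunits of the others, while the mitochondrial genome encodes the remainder, so each of those complexes is assembled from both sets of products. In microglia, the resident macrophages of the brain, the balance between this pathway and glycolysis is known to differ between activation states. Many of these small genes have processed pseudogene copies elsewhere in the genome, and the labels do not state how reads shared with such copies were counted.

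The libraries held 6829720 to 7696168 counts, and a count of 0 allows up to 3 counts, or 0.392 to 0.435 CPM. Of 10 microglial markers all were detected, with a summed level of 2720 to 3070 CPM. The summed level was 0 to 0.58 CPM for 6 neuronal markers, 0.133 to 1.45 CPM for 5 astrocyte markers, 15.4 to 24.8 CPM for 5 oligodendrocyte markers (most of it Cnp) and 14.1 to 16.9 CPM for 5 endothelial markers (most of it Kdr), with Syn1, Slc17a7, Aqp4 and Mog at 0 in every library. Counts are shares of a library, so a gene that made less RNA per cell and one kept constant while other RNA grew cannot be told apart.

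Together the 94 genes took 1.53% of all counts (control), 1.56% (UPM), 1.53% (TZ 1.25), 1.65% (TZ 2.5) and 1.65% (TZ 5). Complex I subunits held 0.501%, 0.501% and 0.502% of counts in the control, UPM and TZ 1.25 libraries, and 0.536% and 0.531% in TZ 2.5 and TZ 5. Complex V held 0.437%, 0.448% and 0.438% in the first 3 libraries and 0.477% and 0.484% in the other 2. Both complexes stood higher in the pair of higher doses than in the other 3 libraries. Against UPM, TZ 5 had 1.06 times the complex I share (1.05 to 1.08) and 1.08 times the complex V share (1.06 to 1.1). A sum is weighted towards abundant genes, and the typical gene of these complexes moved little. Among genes with a mean of at least 10 CPM, the median log2 fold of TZ 5 over UPM was 0.03 for complex I. Of its 35 such genes 19 lay above 0 and 16 below. For complex V the median was 0.02, with 8 of 15 genes above 0 and 7 below.

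Complex IV took 0.348% of counts (control), 0.364% (UPM), 0.349% (TZ 1.25), 0.382% (TZ 2.5) and 0.386% (TZ 5). This sum, 28022 counts in UPM and 26432 in TZ 5, leaves out the abundant subunit gene Cox4i1, which the name pattern misses. Cox4i1 had 4980 counts in UPM and 3810 in TZ 5 (0.849-fold), so a sum that held it would rise less. Complex II went from 0.0478% in the control and 0.0515% in UPM to 0.0527%, 0.0552% and 0.0579% in TZ 1.25, TZ 2.5 and TZ 5. Its TZ 5 share was 1.12 times that of UPM (1.08 to 1.17). Complex III held 0.181%, 0.186%, 0.179%, 0.188% and 0.179% in the same order, and its TZ 5 share was 0.961 times that of UPM (0.938 to 0.985). Complex III alone of the 5 had a lower summed share in TZ 5 than in UPM. The median log2 fold of TZ 5 over UPM was 0.12 for complex II, -0.03 for complex III and 0.23 for complex IV.

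**Figure D1:**
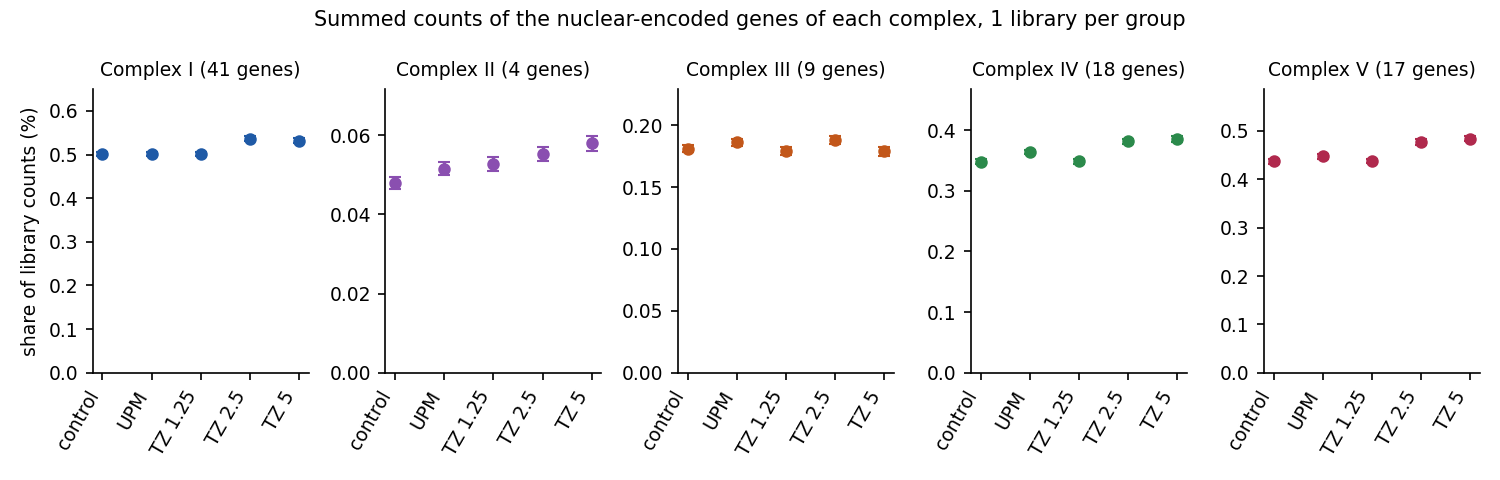
Share of each library's counts (%, linear axis from 0) taken by the summed genes of complexes I to V in the control, UPM, TZ 1.25, TZ 2.5 and TZ 5 libraries; points are single libraries and bars are 95% exact binomial intervals. Complexes I, IV and V stand higher in TZ 2.5 and TZ 5 than in the other 3 libraries, complex II is highest in TZ 5 at 0.0579%, and complex III lies between 0.179% and 0.188% throughout. The complex IV sum leaves out Cox4i1, which was lower in TZ 5 than in UPM.

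Other RNA classes moved along the same libraries. Small nucleolar RNA (146 gene names) took 0.0854% of counts (control), 0.108% (UPM), 0.0995% (TZ 1.25), 0.0645% (TZ 2.5) and 0.0458% (TZ 5). Mitochondrial ribosomal RNA took 7.94%, 8.8%, 8.64%, 7% and 7.06%, and mitochondrial mRNA 3.74%, 3.71%, 3.97%, 4.38% and 4.85%. Nearly all of the mitochondrial mRNA counts came from 7 of its 13 gene names. When these classes were left out of the denominator, the TZ 5 to UPM ratio over all 94 genes was 1.05 in place of 1.06, that of complex II stayed at 1.12 and that of complex III was 0.954. The part of these classes in the gene-level results below was not tested.

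UPM against control asks how the particles alone relate to these genes. None of the 78 genes measured in this pair was called higher and none lower, where called means a fold of at least 1.5 with an interval that excludes 1 and a mean of at least 10 CPM. Over all 8282 genes measured, the same rule called 1.67% higher and 1.41% lower. The median log2 fold was 0.05 over the 78 genes and 0.00 over all genes. At a fold of 1.2 there were 7 genes higher (8.97%) and 2 lower (2.56%) among the 78. Of all 8282 genes, 781 were higher and 846 lower, together 19.6%.

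In complex I the folds of UPM over control ran from 0.822 (0.73 to 0.925) for Ndufb2, an accessory subunit of the membrane arm, to 1.28 (1.15 to 1.43) for Ndufs4, a phosphoprotein of the matrix arm whose loss is used as a mouse model of Leigh syndrome. Ndufs4 stood at 79.3 CPM in the control and at 102, 92.2, 102 and 99.1 CPM in the UPM, TZ 1.25, TZ 2.5 and TZ 5 libraries, so the control was its lowest library. Complex II ran from 0.993 (0.916 to 1.08) for the iron-sulfur subunit Sdhb to 1.12 (1.02 to 1.23) for the membrane anchor Sdhc. Complex III ran from 0.902 (0.83 to 0.981) for the core protein Uqcrc1 to 1.11 (1.04 to 1.19) for the small subunit Uqcr10. Complex IV ran from 0.926 (0.813 to 1.06) for Cox7a2l, which joins complexes III and IV into supercomplexes, to 1.19 (1.13 to 1.27) for Cox7b. Complex V ran from 0.918 (0.753 to 1.12) for Atp5g1, one of 3 genes for the c subunit of the rotor ring, to 1.18 (1.11 to 1.26) for Atp5mpl, a small membrane subunit. Each complex thus held genes on both sides of 1, and the widest departures stayed under the 1.5-fold limit. In complex II only Sdhb lay under 1, at 0.993 with an interval that includes 1.

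The electron carrier Cycs, also known for triggering apoptosis when released from mitochondria, had 47.8 CPM (control), 39.6 (UPM), 33.5 (TZ 1.25), 39.1 (TZ 2.5) and 49.6 (TZ 5). Its fold was 0.829 (0.709 to 0.968) for UPM over control and 1.25 (1.07 to 1.47) for TZ 5 over UPM, so TZ 5 and the control were its highest libraries. In the fit over all 5 libraries (edgeR, quasi-likelihood, with a UPM term and a linear TZ dose term), none of the 88 genes tested passed an adjusted p of 0.05 for the UPM term, where 0.113% of all 12381 genes did. Cycs had an unadjusted p of 0.0137 and an adjusted p of 0.517 for that term, with a log2 estimate of -0.43 ± 0.167 (SE). At an unadjusted p under 0.05 there were 1 gene higher (Ndufs4, 1.14% of 88) and 2 lower (Cycs and Ndufa5, 2.27%), below the 4.26% and 3.53% of all tested genes, and the DESeq2 Wald test called 0.

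The TZ libraries ask whether trazodone given before the particles relates to the same genes. In the dose fit 13 of the 88 tested genes rose with TZ dose and 3 fell at an adjusted p under 0.05, beside 2.95% of all tested genes that rose and 2.5% that fell. Since calls are more frequent among well-measured genes, the same count was made for genes with a mean of at least 50 CPM, a limit added after seeing the data. It held 70 of the 94 genes, of which the same 13 rose (18.6%) and the same 3 fell (4.29%), beside 7.32% and 5.87% of all 3853 genes at that level. At an unadjusted p under 0.05, 22 of the 88 had a positive dose term (25%) and 9 a negative one (10.2%), beside 9.15% and 8.42% of all tested genes. The 13 that rose together took 0.168%, 0.175%, 0.172%, 0.224% and 0.257% of counts in the control, UPM, TZ 1.25, TZ 2.5 and TZ 5 libraries, and the 3 that fell took 0.0659%, 0.0715%, 0.0639%, 0.0594% and 0.051%, which describes genes chosen by this fit and supports nothing further.

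**Figure D2:**
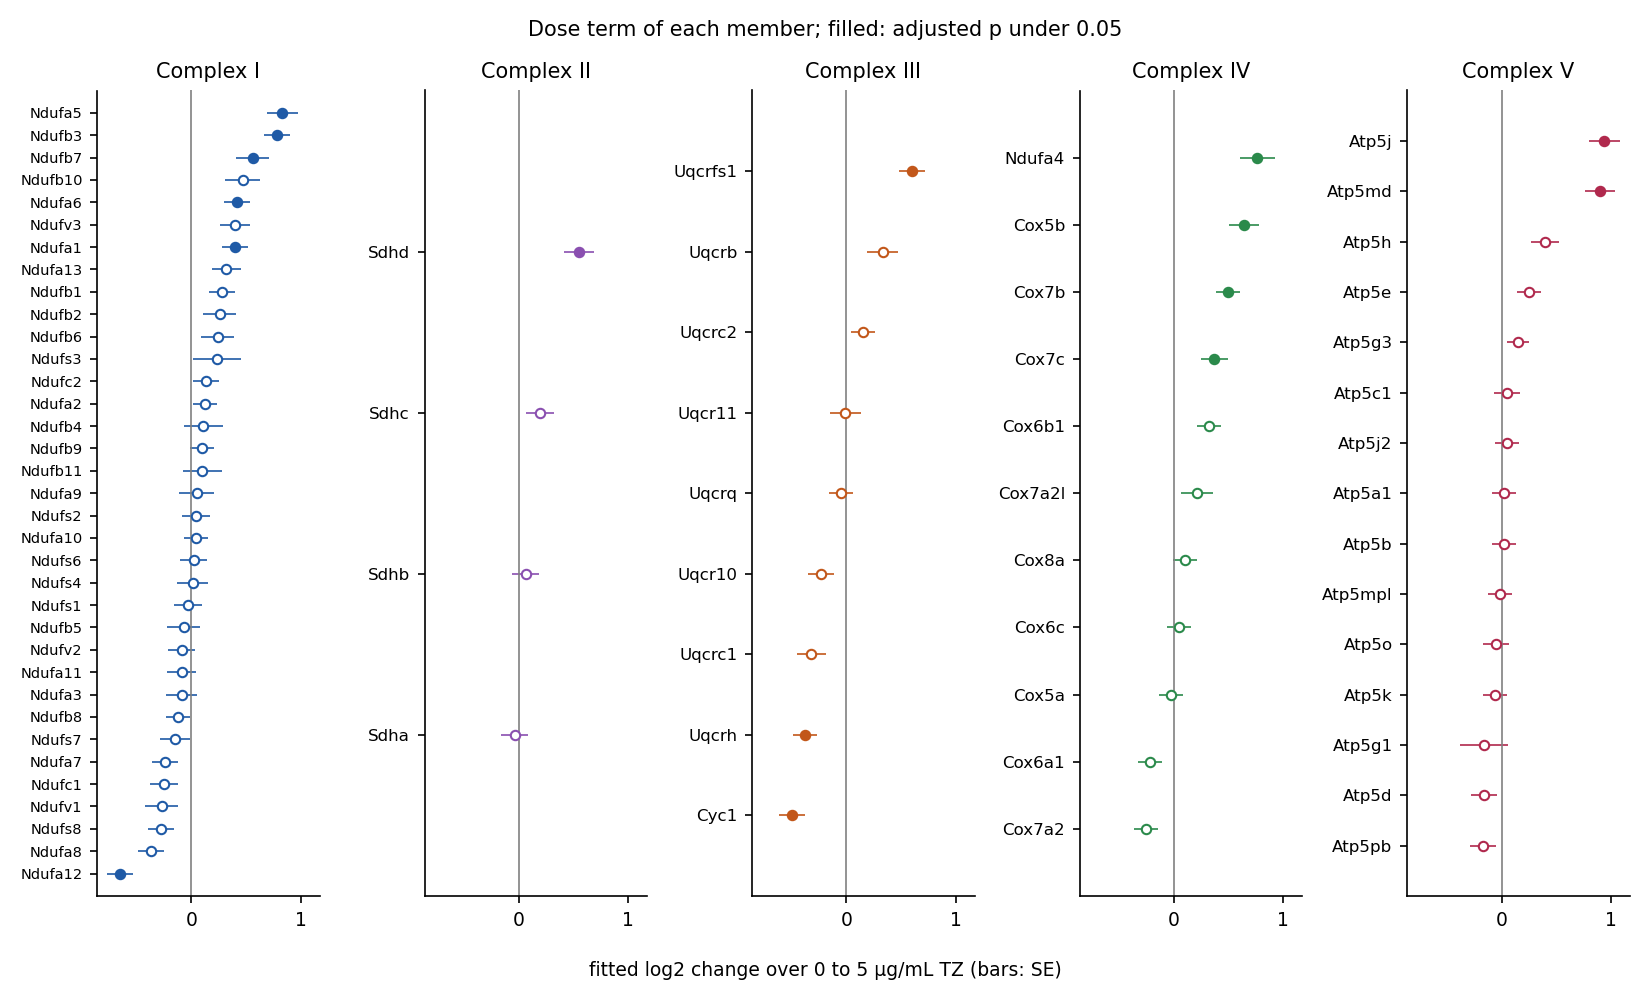
Fitted log2 change over 0 to 5 µg/mL TZ (horizontal axis, bars are SE) for each gene of complexes I to V with a mean of at least 10 CPM, from the edgeR fit over 5 libraries; filled points have an adjusted p under 0.05. Every complex holds genes on both sides of 0, though in complex II only Sdha lies below, at -0.04 with an SE of 0.12. Complex III holds the called genes Uqcrfs1 at 0.60 and Cyc1 at -0.50.

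The control does not enter the dose term, which rests on 4 libraries, so 2 residual degrees of freedom stand beside 48.7 prior degrees of freedom shared across genes. Over the 10 alternative fits, 5 of the 16 genes were called in every one: Atp5j, Ndufa5, Ndufb3 and Uqcrfs1 rose and Ndufa12 fell. Without the TZ 5 library 6 genes were called, these 5 and Atp5md, and without the UPM library 10 were called. The DESeq2 Wald test did not call Atp5md, Cox7c, Ndufa1, Ndufa6 or Ndufb7, and a step between the lower and the higher doses did not call Ndufb7, Sdhd or Uqcrh. Of the 10 calls lost without TZ 5, 6 kept a slope at least as large: per µg/mL, log2 slopes went from 0.152 to 0.204 for Ndufa4, 0.129 to 0.174 for Cox5b, 0.0749 to 0.0952 for Cox7c, 0.0844 to 0.0989 for Ndufa6, -0.10 to -0.113 for Cyc1 and -0.0765 to -0.0809 for Uqcrh. The other 4 had smaller slopes without it, from 0.0989 to 0.0386 for Cox7b, 0.112 to 0.0264 for Ndufb7, 0.0809 to 0.057 for Ndufa1 and 0.109 to 0.0939 for Sdhd.

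Promoters are shown for a pair of genes that rose and a pair that fell, to set side by side what lies upstream of each. They are the 250 bases before the annotated start in RefSeq (GRCm38.p6, an earlier build than the authors' GRCm39), written 5′ to 3′ on the gene's strand. Capitals mark matches, on either strand, to CGCANGCG, the core letters bound by nuclear respiratory factor 1 (NRF1), or to CCGGAAG, an ETS-family letter run of the kind bound by GABP. Both factors are known to act at many promoters of respiratory chain genes. No matches overlap in these 4 promoters. The first is Atp5md at chr19:47090648-47090897 on the minus strand and the second Ndufb3 at chr1:58586147-58586396 on the plus strand, both of which rose. The third is Ndufa12 at chr10:94198785-94199034 on the plus strand and the fourth Uqcrh at chr4:116075071-116075320 on the minus strand, both of which fell.
Atp5md: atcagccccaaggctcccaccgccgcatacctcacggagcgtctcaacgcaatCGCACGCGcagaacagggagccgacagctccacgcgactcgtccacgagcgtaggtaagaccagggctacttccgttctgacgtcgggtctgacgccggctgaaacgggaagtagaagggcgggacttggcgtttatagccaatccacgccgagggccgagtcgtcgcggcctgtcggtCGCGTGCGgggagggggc
Ndufb3: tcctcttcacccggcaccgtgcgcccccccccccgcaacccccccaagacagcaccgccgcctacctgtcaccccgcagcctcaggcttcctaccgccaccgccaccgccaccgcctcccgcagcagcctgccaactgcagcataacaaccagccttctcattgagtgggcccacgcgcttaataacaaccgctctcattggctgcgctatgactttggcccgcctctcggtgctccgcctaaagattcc
Ndufa12: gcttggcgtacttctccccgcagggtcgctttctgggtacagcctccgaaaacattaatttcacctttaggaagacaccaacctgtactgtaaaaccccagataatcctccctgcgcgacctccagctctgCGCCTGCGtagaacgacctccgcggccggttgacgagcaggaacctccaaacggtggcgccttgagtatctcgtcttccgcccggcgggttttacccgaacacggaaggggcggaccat
Uqcrh: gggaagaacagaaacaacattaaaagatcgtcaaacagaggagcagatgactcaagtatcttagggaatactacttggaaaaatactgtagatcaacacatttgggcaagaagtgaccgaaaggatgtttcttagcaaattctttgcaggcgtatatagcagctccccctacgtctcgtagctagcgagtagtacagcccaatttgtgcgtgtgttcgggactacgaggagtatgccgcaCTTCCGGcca

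An NRF1 match is thus present in 1 promoter of each direction, and absent from the other of each. Of the 88 tested genes 72 had a promoter entry, and 21 of these (29.2%) held CGCANGCG, compared with 16.4% of the 9480 tested genes with an entry and 10.3% of 17492 protein-coding genes. Of the 13 genes that rose, 4 held it (Atp5j, Atp5md, Ndufa5 and Sdhd). Of the 57 with an entry that were not called, 16 held it (28.1%). By complex it was found in 9 of 32 promoters of complex I, 2 of 3 of complex II, 0 of 5 of complex III, 1 of 12 of complex IV and 7 of 15 of complex V. CCGGAAG was found in 14 of the 72 (19.4%) and in 16.4% of tested genes, and in 3 of the 13 that rose (Atp5j, Ndufb7 and Sdhd). AAGATGGC, the letters of a YY1 site, was found in 1 of the 72 (Atp5j, 1.39%) and in 2.69% of tested genes. A match is a description of letters, not of a bound factor.

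Complex I had 5 genes that rose with dose and 1 that fell of 38 tested, beside 2.95% and 2.5% of all tested genes. None of its 7 nuclear-encoded core subunits, which hold the flavin and iron-sulfur clusters or the quinone site, was called. Their fitted log2 changes over 0 to 5 µg/mL had a median of -0.09. With so few genes, 0 of 7 is close to the 7.32% of all genes at 50 CPM or more that rose with dose. The other core subunits are encoded in mitochondria. Of these, ND1 and ND4 rose with dose, ND2, ND5 and ND6 were not called, and ND3 and ND4L were not tested. The 29 accessory subunits, which surround and stabilise the core, had a median of 0.11 and held all 6 calls among the nuclear genes. The matrix arm had 2 that rose and 1 that fell of 16 and the membrane arm 3 and 0 of 20. Whether core and accessory subunits differ was not tested.

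Ndufa5, an accessory subunit of the matrix arm near the quinone-binding region, had 109 CPM (control), 92.3 (UPM), 89.5 (TZ 1.25), 139 (TZ 2.5) and 154 (TZ 5). The pair of higher doses stood above the other 3 libraries, which included the control. Its fitted change was 0.83 ± 0.14 (SE) in log2 over 0 to 5 µg/mL (adjusted p = 6.46e-05), and its TZ 5 to UPM fold 1.67 (1.51 to 1.84). Ndufb3, of the distal membrane arm, had 137, 121, 139, 172 and 207 CPM in the same order. TZ 5 was its highest library and UPM its lowest, and its fitted change was 0.78 ± 0.12 (adjusted p = 1.72e-05), with a TZ 5 to UPM fold of 1.71 (1.57 to 1.86).

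Ndufa12, an accessory subunit that joins the matrix arm late in assembly, went the other way, with 190 CPM (control), 222 (UPM), 196 (TZ 1.25), 163 (TZ 2.5) and 142 (TZ 5). UPM was its highest library, and both higher doses lay below the control. Its fitted change was -0.65 ± 0.12 (adjusted p = 0.000277), and its TZ 5 to UPM fold was 0.642 (0.592 to 0.694). Ndufaf2, the assembly factor related to Ndufa12 that occupies its place before it joins, was looked up after these values were seen. It had 26.2, 31.6, 20.9, 28.1 and 39.5 CPM and a fitted change of 0.49 ± 0.21 (adjusted p = 0.199).

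Ndufb7, on the outer face of the membrane arm, had 63.8, 61.9, 75.8, 65 and 95.7 CPM, so that TZ 5 was the highest library. It rose by 0.56 ± 0.15 (adjusted p = 0.018), and the call was lost without the TZ 5 library (adjusted p = 0.921) and without the UPM library (0.13). Ndufa1, a small subunit of the membrane arm, had 186, 196, 187, 217 and 251 CPM and rose by 0.40 ± 0.12 (adjusted p = 0.0254). Ndufa6, a matrix arm subunit of the LYR family, had 201, 186, 184, 222 and 242 CPM and rose by 0.42 ± 0.12 (adjusted p = 0.0199). Both had their highest levels in the pair of higher doses, and both calls were lost without the TZ 5 library (adjusted p = 0.644 and 0.281) and without TZ 1.25 (0.0933 and 0.0727). Ndufa6 also lost its call without the UPM library (0.107).

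Complex II had 1 gene that rose of 4, beside 2.95% of all tested genes and 7.32% of those at 50 CPM or more. With 4 genes, 1 call cannot be told apart from these shares. Sdhd, which with Sdhc anchors the enzyme in the membrane, had 74.4 CPM (control), 81.4 (UPM), 98.4 (TZ 1.25), 96.1 (TZ 2.5) and 123 (TZ 5). All 3 TZ libraries stood above UPM, and the fitted change was 0.55 ± 0.14 (adjusted p = 0.00823). That call was lost without the UPM library (adjusted p = 0.181) and without TZ 5 (0.5). Its partner Sdhc had 107, 119, 111, 105 and 134 CPM, a fitted change of 0.19 ± 0.13 and an adjusted p of 0.509. The catalytic subunits Sdha, which binds the flavin, and Sdhb had 142 to 158 and 159 to 186 CPM and adjusted p-values of 0.928 and 0.855.

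Among the complex II assembly factors, Sdhaf1, needed to insert iron-sulfur clusters into Sdhb, had 31, 29.4, 30.1, 24.4 and 19.4 CPM. It was called lower in TZ 5 against UPM at 0.661-fold (0.53 to 0.822), but its dose term had an adjusted p of 0.0623. Sdhaf2, which helps attach the flavin to Sdha, had 17.6 CPM in the control and 22.7 to 26.5 CPM in the other 4 libraries. Sdhaf4 had 24, 30.8, 27.2, 35.1 and 34.1 CPM, and Sdhaf3 had 3.79 to 6.53 CPM.

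Complex III had 1 gene that rose and 2 that fell of 9, beside 2.95% and 2.5% of all tested genes. At 50 CPM or more these shares were 7.32% and 5.87%, and a difference from them was not tested in so few genes. Uqcrfs1, the Rieske iron-sulfur protein that carries electrons from the quinol site towards cytochrome c1, had 149 CPM (control), 163 (UPM), 159 (TZ 1.25), 221 (TZ 2.5) and 235 (TZ 5). The control, UPM and TZ 1.25 libraries were close to each other, and both higher doses stood above them. The gene rose by 0.60 ± 0.12 (adjusted p = 0.00119), with a TZ 5 to UPM fold of 1.44 (1.34 to 1.55), just under the 1.5-fold limit.

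Cyc1, cytochrome c1 itself, had 220, 222, 199, 183 and 156 CPM and fell by 0.50 on the log2 scale (SE 0.12, adjusted p = 0.00505). Its level was lower in each TZ library than in the one with the next lower dose. Uqcrh, the hinge protein that sits beside cytochrome c1, had 255, 275, 248, 240 and 209 CPM and fell by 0.38 (SE 0.11, adjusted p = 0.0346). The levels of both followed the same order from UPM to TZ 5. Both calls were lost without the UPM library (adjusted p = 0.138 for Cyc1 and 0.346 for Uqcrh) and without TZ 5 (0.193 and 0.423), and that of Uqcrh also without TZ 1.25 (0.05, just over the limit). The core proteins Uqcrc1 and Uqcrc2 had fitted changes of -0.32 ± 0.13 and 0.15 ± 0.11, neither of which passed (adjusted p = 0.14 and 0.538). The quinone-binding subunit Uqcrb had 0.33 ± 0.14 (adjusted p = 0.193), and Uqcrq, Uqcr10 and Uqcr11 ran from -0.23 to -0.01 with adjusted p-values of 0.287 to 0.991.

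Complex IV had 4 genes that rose and 0 that fell of 15 tested, beside 2.95% and 2.5% of all tested genes. At 50 CPM or more these shares were 7.32% and 5.87%, and a difference from them was not tested. The median fitted change was 0.21 over its 11 genes with a mean of at least 10 CPM and 0.32 with the low-level isoforms included, beside 0.01 over all tested genes. Ndufa4, a subunit once assigned to complex I, had 48.5 CPM (control), 46 (UPM), 46.7 (TZ 1.25), 65.4 (TZ 2.5) and 74.6 (TZ 5). It rose by 0.76 ± 0.16 (adjusted p = 0.00182). Cox5b, a zinc-binding subunit on the matrix side, had 72.5, 81.3, 77.3, 110 and 120 CPM and rose by 0.64 ± 0.14 (adjusted p = 0.00266). In both genes the pair of higher doses stood clear of the other 3 libraries, and both calls were lost without the TZ 5 library (adjusted p = 0.082 and 0.0638).

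Cox7b, a small membrane subunit, had 275, 328, 285, 351 and 435 CPM and rose by 0.49 ± 0.11 (adjusted p = 0.00456). The UPM library lay close to TZ 2.5, and without TZ 5 the adjusted p was 0.767. Cox7c, another small membrane subunit, had 152, 162, 164, 191 and 205 CPM and rose by 0.37 ± 0.12 at an adjusted p of 0.049, a call that only 2 of the 10 alternatives kept. Cox6a1 and Cox7a2, the non-muscle isoforms of their subunits, had 587 and 489 CPM in UPM and 496 and 394 CPM in TZ 5. Their TZ 5 to UPM folds were 0.844 (0.807 to 0.883) and 0.807 (0.768 to 0.848), with adjusted p-values of 0.276 and 0.181 for dose. Cox4i1, the large subunit that the name pattern misses, had 654, 651, 641, 589 and 553 CPM (adjusted p = 0.181).

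The tissue-restricted isoforms of complex IV were at low levels. Cox6a2 and Cox7a1, the heart and muscle isoforms, had 5.86 to 10.4 and 4.13 to 7.4 CPM, and Cox7b2, a testis isoform, 5.82 to 8.41 CPM. Cox6b2, Cox8b and Cox8c were listed at 0 in all 5 libraries. Cox4i2, a hypoxia-responsive isoform outside the name pattern, had 0 to 3 counts. Ndufa4l2, a relative of Ndufa4 also induced by hypoxia, had 5 counts in the control, 10 in TZ 1.25 and 0 in the other 3, so no order can be read from it.

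Complex V had 2 genes that rose of 17, beside 2.95% of all tested genes and 7.32% of those at 50 CPM or more. Both lie outside F1, the catalytic head with its central stalk, but with 5 F1 genes tested, 0 calls there is close to these shares. Atp5j, the coupling factor F6 of the peripheral stalk that holds the head still, had 74.7 CPM (control), 76.3 (UPM), 74.6 (TZ 1.25), 117 (TZ 2.5) and 137 (TZ 5). The first 3 libraries were almost level, and both higher doses stood far above them. It rose by 0.94 ± 0.14 (adjusted p = 1.43e-05), with a TZ 5 to UPM fold of 1.8 (1.62 to 2.0). Atp5md, a small membrane subunit also called DAPIT that takes part in pairing ATP synthases, had 151, 163, 145, 244 and 277 CPM. It rose by 0.90 ± 0.14 (adjusted p = 9.2e-06), with a TZ 5 to UPM fold of 1.7 (1.58 to 1.83), and the DESeq2 Wald test gave it an adjusted p of 0.102.

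The 5 subunits of F1, Atp5a1, Atp5b, Atp5c1, Atp5d and Atp5e, gave no call, and their fitted changes ran from -0.16 to 0.25. Atp5a1 and Atp5b, which form the ring that makes ATP, had 471 to 500 and 460 to 475 CPM. The peripheral stalk was not uniform: Atp5h, subunit d, had 109, 120, 111, 151 and 150 CPM and a fitted change of 0.40 ± 0.13 (adjusted p = 0.0603), while subunit b, Atp5pb, had 233, 245, 231, 208 and 218 CPM and -0.17 ± 0.12 (adjusted p = 0.476). The c-ring gene Atp5g3 had 1080 to 1210 CPM, Atp5g1 22.5 to 28.5 CPM and Atp5g2 2.31 to 4.57 CPM. Atpif1, which blocks the enzyme when it runs in reverse, had 582 to 640 CPM (adjusted p = 0.866).

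**Figure D3:**
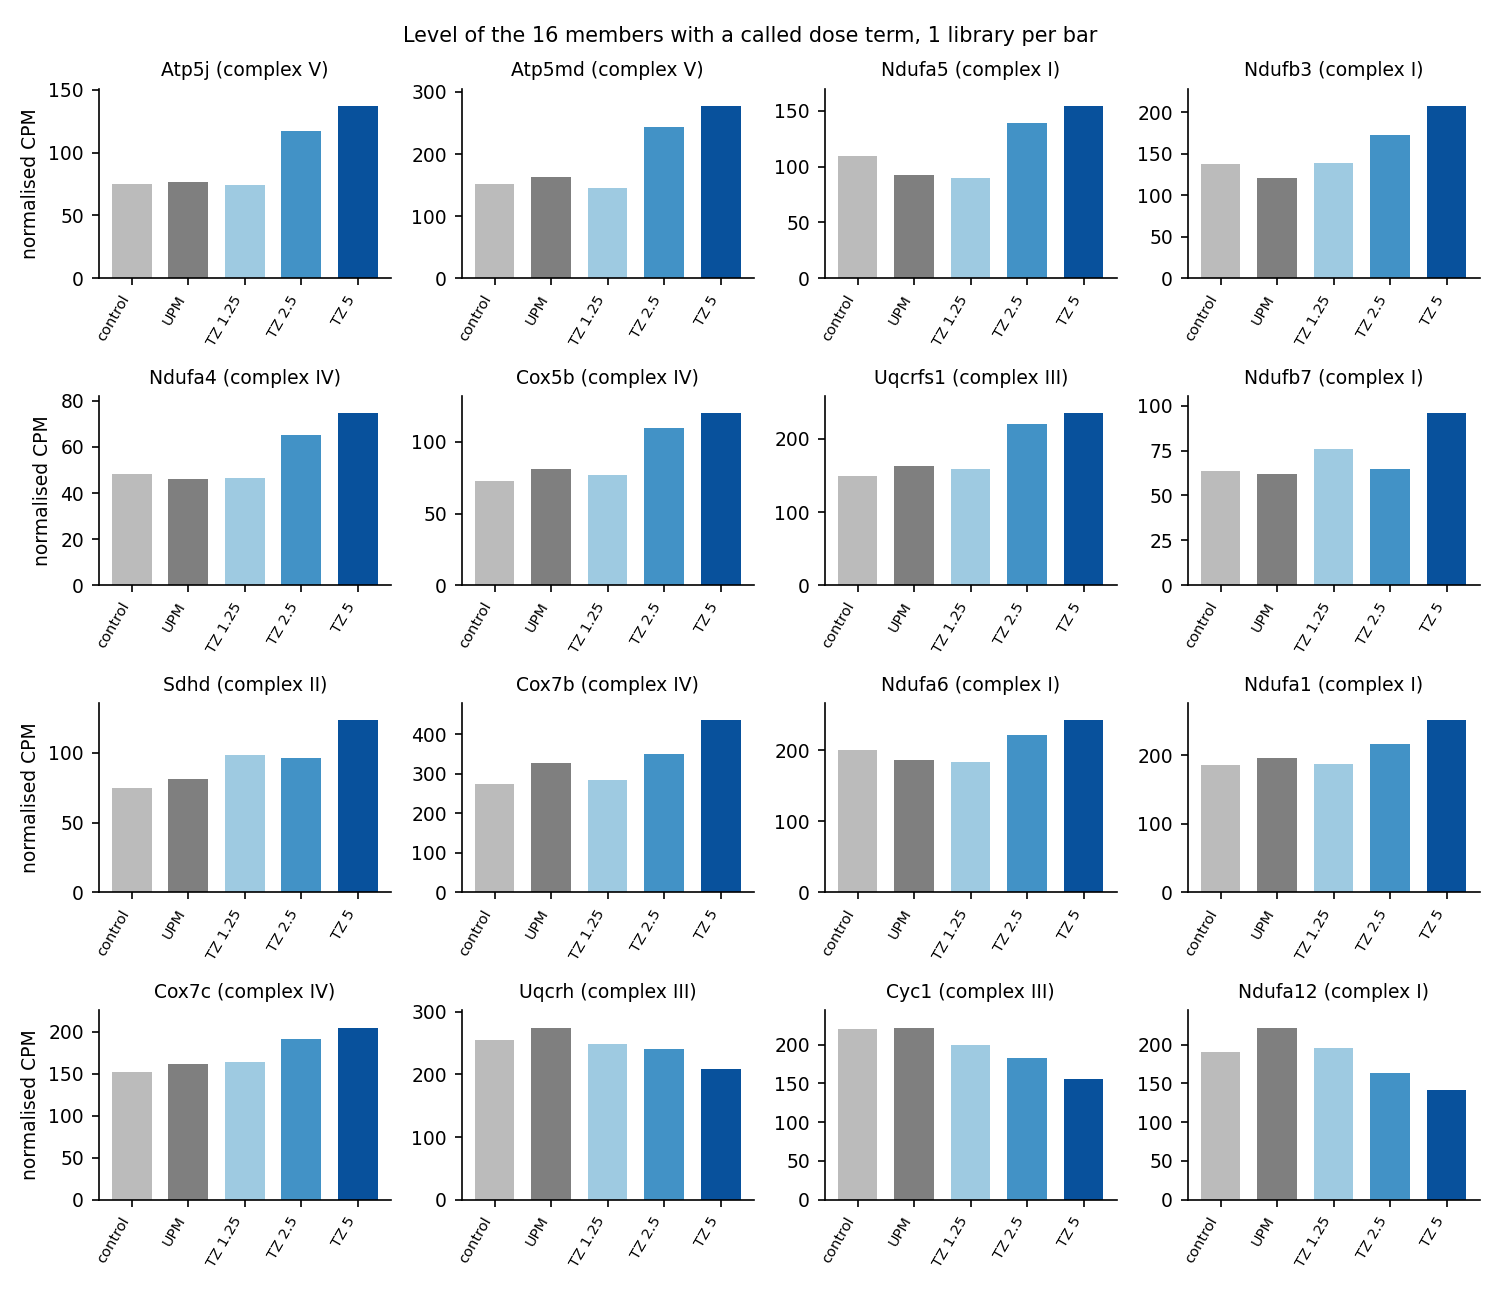
Level (TMM-scaled CPM, linear axes from 0, each panel with its own scale) of the 16 genes with a called dose term in the control, UPM, TZ 1.25, TZ 2.5 and TZ 5 libraries, 1 library per bar. In Atp5j, Atp5md, Ndufa4, Ndufa5, Cox5b and Uqcrfs1 both higher doses stand above the other 3 libraries, whereas Cyc1, Uqcrh and Ndufa12 are lower in each TZ library than at the next lower dose.

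Taken one dose at a time, TZ 1.25 differed from UPM by less than 1.5-fold in all 78 genes, so 0 were called higher and 0 lower, where all 8336 genes measured gave 1.19% and 1.03%. At a fold of 1.2 there were 5 higher (6.41%) and 1 lower (1.28%). Of all 8336 genes, 667 were higher and 700 lower, together 16.4%. The widest folds were those of Ndufb10, a membrane arm subunit of complex I, at 1.34 (1.17 to 1.54) and Ndufb11, of the same arm, at 0.727 (0.62 to 0.851). Ndufb10 had 47 CPM in the control, 47.3 in UPM and 63.5, 63.5 and 69.8 in the 3 TZ libraries, and its dose term had an adjusted p of 0.086. Ndufb11 had 41.5, 51.1, 37.1, 46.9 and 50.5 CPM, with TZ 1.25 the lowest. In the other complexes the folds at this dose lay between 0.859 (Atp5g1) and 1.21 (Sdhd), with complex III between 0.895 (Cyc1) and 1.03 (Uqcrq) and complex IV between 0.864 (Cox7a2) and 1.09 (Cox7a2l).

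At TZ 2.5, 3 genes were called higher than in UPM, Atp5j at 1.54-fold (1.38 to 1.71), Ndufa5 at 1.51-fold (1.37 to 1.66) and Atp5md at 1.5-fold (1.39 to 1.62), and 0 lower. With DESeq2 size factors only Atp5j stayed past the limit, at 1.53-fold, with Atp5md at 1.49-fold. All 8337 genes measured gave 2.67% higher and 1.73% lower, and the 3 genes are 3.85% of the 78. Just outside the limit were Ndufa4 at 1.42-fold (1.23 to 1.64) and Ndufb3 at 1.42-fold (1.3 to 1.54), and the lowest fold was that of Ndufa12 at 0.735 (0.682 to 0.793). The lowest folds of complexes II to V at this dose were 0.881 (Sdhc), 0.825 (Cyc1), 0.843 (Cox6a1) and 0.848 (Atp5pb). At a fold of 1.2 there were 12 higher (15.4%) and 4 lower (5.13%). Of all 8337 genes, 1154 were higher and 1084 lower, together 26.8%.

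At TZ 5, 7 genes were called higher (8.97% of the 78) and 2 lower (2.56%), beside 3.78% and 2.8% of all 8367 genes measured. Those higher were Atp5j, Ndufb3, Atp5md, Ndufa5, Ndufa4 at 1.62-fold (1.41 to 1.86), Ndufb7 at 1.55-fold (1.37 to 1.74) and Sdhd at 1.51-fold (1.36 to 1.68), and those lower were Ndufa12 and Sdhaf1. Just outside were Cox5b at 1.47-fold (1.33 to 1.64), Ndufb10 at 1.47-fold (1.28 to 1.69) and Uqcrfs1 above, and Cyc1 at 0.702-fold (0.65 to 0.759) below. The lowest folds were 0.959 (0.882 to 1.04) in complex II, for Sdha, and 0.86 (0.693 to 1.07) in complex V, for Atp5g1, and both intervals include 1. At a fold of 1.2 there were 22 higher (28.2%) and 8 lower (10.3%) of 78. Of all 8367 genes, 1393 were higher and 1259 lower, together 31.7%. These 3 comparisons share the UPM library, so their folds are not independent of each other.

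The levels also allow a count that ignores fold size. In 31 of the 78 genes (39.7%) both TZ 2.5 and TZ 5 lay above both UPM and TZ 1.25, and in 15 (19.2%) both lay below. Over all 8353 genes measured the shares were 26.6% and 25.6%. Among the 31 was Cox6b1, which had 356 CPM in UPM and TZ 1.25 and 402 and 436 CPM in the higher doses. Another was Ndufv3, an accessory subunit of complex I, with 87.4, 81.9, 97.3 and 111 CPM. Among the 15 were the core subunits Ndufs1, Ndufs8 and Ndufv1, and the accessory subunits Ndufa7 and Ndufa8. Complexes I, III, IV and V had genes in both groups and complex II in neither.

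GC content was not used to choose the genes. It was taken over the last 400 bases of the longest annotated protein-coding transcript of each gene. Reads of this 3′ method fall near transcript ends, but the end used in these cells may differ. This GC content had a median of 39.8% in the genes that rose, with a wide range (31.2% to 58.2%, n = 13). The median was 48.8% in the 3 that fell, 48.5% in the 69 genes with a transcript that were not called, and 43.2% over 10690 tested genes. Across 85 genes with a transcript, Spearman's rho between GC content and the dose estimate was -0.36, and across all 10690 it was -0.09. These are descriptions over genes that share libraries, with no test. With a GC offset in the fit, an alternative added after seeing the data, 13 genes still rose and 3 fell; Ndufv3 was gained and Cox7c lost. Transcript length had a rho of -0.14 over the 85 genes.

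**Figure D4:**
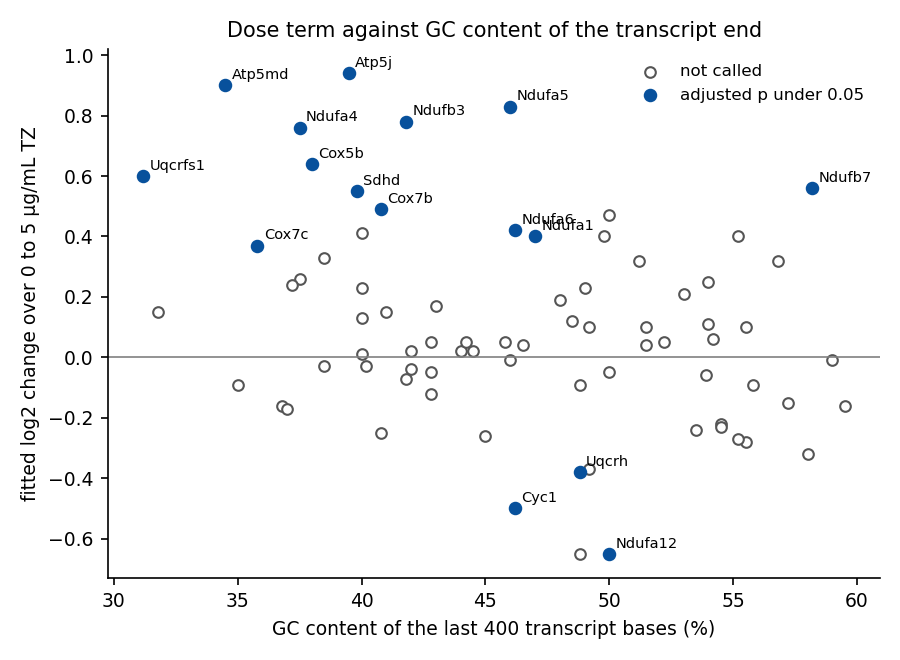
Fitted log2 change over 0 to 5 µg/mL TZ against the GC content (%) of the last 400 bases of the longest annotated protein-coding transcript. There is 1 point per gene with a mean of at least 10 CPM and a transcript in the reference. Filled points have an adjusted p under 0.05. The genes that rose lie at 47% GC or under, except Ndufb7 at 58.2%, and the 3 that fell lie between 46.2% and 50%.

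Genes around the pathway were counted from lists of textbook membership, beside the 2.95% of all tested genes, or 7.32% of those at 50 CPM or more, that rose with dose. With so few genes in a list, 1 or 2 calls are close to these shares. Of 19 tested assembly factors of complex IV, 3 rose with dose and 0 fell: Cox17, the copper chaperone of the complex, had 166, 170, 177, 235 and 250 CPM and rose by 0.61 ± 0.12 (adjusted p = 0.000851), Cox20 rose by 0.65 ± 0.18 (adjusted p = 0.0203) and Cox15, which makes heme a, by 0.66 ± 0.19 (adjusted p = 0.0263). None of 14 assembly factors of complex I, 6 of complex III or 2 of complex V passed in either direction. Of 9 carriers and porins, the ATP/ADP exchangers Slc25a4 and Slc25a5 rose, by 0.56 ± 0.12 and 0.40 ± 0.11 (adjusted p = 0.00177 and 0.027). Slc25a4 had 287, 286, 268, 377 and 397 CPM, again with the pair of higher doses above the rest. Of 12 citric acid cycle genes 1 rose, citrate synthase (Cs), from 126 CPM in UPM to 168 CPM in TZ 5 (adjusted p = 0.0157). None of 11 tested regulators of mitochondrial gene expression was called. Among them Nrf1 had 43.8, 37.9, 38.5, 35.2 and 32.8 CPM (adjusted p = 0.573), Gabpa 17.7 to 21.6 CPM and Yy1 248 to 282 CPM, while Ppargc1a, which was not tested, had 0 to 4 counts.

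The 13 subunits encoded in mitochondria were also unequal. Of 7 tested, ND4 and ND1 of complex I and CYTB of complex III rose, by 0.96 ± 0.11, 0.42 ± 0.10 and 0.83 ± 0.10 (adjusted p = 1.15e-08, 0.00592 and 8.19e-08), and ND2, ND5, ND6 and COX1 ran from -0.25 to -0.01 without a call. ND3, ND4L and COX3 were listed at 0 in every library, and COX2, ATP6 and ATP8 had at most 5 counts in any. In the same libraries ND2 had 100711 to 126872 counts. The counting program and annotation are not stated, so values at or near 0 here cannot be read as absent RNA. Their cause was not tested.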

How the data were processed

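Messenger RNA of 5 BV-2 libraries was read by QuantSeq, an oligo-dT primed 3′ method with single-end reads of 75 bp, per the labels' protocols. The authors deposited raw counts by gene symbol, each library in its own file. STAR, edgeR and build GRCm39 are named in the submitters' processing notes. The labels do not state the counting program, annotation or strand setting, so values of overlapping genes and gene copies are less certain.

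CPM were scaled by TMM factors (0.991 to 1.014) over all genes and libraries. Folds carry 95% exact conditional binomial (Clopper-Pearson) intervals. Reads have no molecular identifiers, so intervals and the floor of 3 counts cover counting error only. edgeR 4.0.16 (R 4.3.3, quasi-likelihood) was fitted to the 5 libraries after filterByExpr (12381 genes), with terms for UPM and, linearly, for TZ dose, with Benjamini-Hochberg adjustment over all of them. SE was taken from the estimate and the square root of its F statistic. The UPM term fits the single control without residual, so p-values for that term assume that it varies like the other libraries. DESeq2 1.42.0 served as an alternative.

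GC content, transcript length and promoters came from a GRCm38 reference, matched by symbol. GC content and length are those of the longest protein-coding transcript of each gene. Genes named are those called in any comparison or by either term, the highest and lowest gene of each complex in each comparison, Cyc1, Cycs, Atpif1, the complex IV isoforms and the extremes and calls of the lists, with others chosen after their values were seen. The genes and lists were chosen with earlier results of these data known. Alternatives were other size factors, folds and CPM minimums, no filter, dose as rank or step, each UPM library left out, and other denominators.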

Additional observations from a re-analysis of the deposited data

How the results depend on the processing

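Of 82 alternative settings, 69 left a count within 1.5 times its value or a share ratio within its interval, and 13 did not. With a fold of 1.2 the calls were 9 for UPM against control, 6 for TZ 1.25, 16 for TZ 2.5 and 30 for TZ 5 against UPM, and with a fold of 2 they were 0 for TZ 2.5 and 0 for TZ 5. The TZ 2.5 count was 1 with DESeq2 size factors in place of 3, its called genes having folds of 1.5 to 1.54. For the dose term, leaving out 1 library at a time gave 6 (without TZ 5) to 15 calls (without TZ 2.5) in place of 16, with 10 without UPM, and the other alternatives gave 11 (DESeq2 Wald test) to 19 (dose as rank). The UPM term gave 0 calls under all 10 alternatives. Without mitochondrial and small nucleolar RNA in the denominator, the share ratio of all 94 genes was 1.03 for UPM against control, 1.04 for TZ 2.5 and 1.05 for TZ 5 against UPM, and that of complex I was 1.06 for TZ 2.5, in place of 1.02, 1.06, 1.06 and 1.07. The cause of these shifts was not tested. No paired analysis was possible because each group has 1 library. Low counts limit the 16 genes with a mean under 10 CPM, for which no fold of 1.5 is read in the main setting. They include the subunit genes Atp5l (4.63 CPM), Ndufs5 (7.16 CPM) and Atp5g2 (3.76 CPM) as well as tissue isoforms. Whether reads shared with gene copies lower these values was not tested. With a CPM minimum of 1, TZ 5 against UPM gave 10 genes higher and 2 lower of 86, in place of 7 and 2 of 78.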
